A study of Mus musculus with 5 samples.

Results

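The 40 genes described here are the interferon-stimulated genes and interferon-induced GTPases of a series on T cells of mouse liver. They were found by gene symbol among the 55364 gene IDs of the count tables, and every one of the 40 was found. They fall into 4 classes, which are 22 antiviral genes, 7 immunity-related GTPases (Irg), 7 guanylate-binding proteins (Gbp) and 4 STAT and IRF factors. The question that the design allows is whether their RNA levels differ between invariant natural killer T (iNKT) cells of livers with hepatocellular carcinoma (HCC) and of healthy livers.

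All mice were wild-type male C57BL/6. The healthy control group (n = 2 libraries) received PBS. The HCC group (n = 3) had been injected once, intraperitoneally, with 25 mg/kg of the liver carcinogen diethylnitrosamine (DEN) at an age of 15 days, and livers were taken at 38 to 42 weeks. The cells were sorted as positive for the T cell receptor beta chain and for a CD1d tetramer that presents the lipid PBS57, and their RNA was read from the 3′ end with a QuantSeq kit. The series describes the 5 libraries as 5 mice. The tables of HCC 2 and HCC 3 carry a shared number in their names, and whether these libraries come from separate animals was not settled here. DEN-treated liver differs from PBS-treated liver in its chemical exposure as well as in its tumours, and these cannot be told apart in this design.

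Interferons are secreted proteins that bind receptors on many cell types and act through the JAK kinases and STAT proteins. Type I interferons assemble a complex of STAT proteins and IRF9 that binds the interferon-stimulated response element (ISRE), whereas interferon-gamma drives STAT dimers to the gamma-activated site (GAS). Their target genes include restriction factors against viruses, sensors of nucleic acids, and the Irg and Gbp families of large GTPases, which assemble on the vacuoles of intracellular bacteria and parasites. The iNKT cell is a T cell with a nearly invariant receptor for lipids, is abundant in mouse liver, and is known for rapid release of cytokines, interferon-gamma among them.

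The DNA before the start sites of some of these genes holds the letters of these elements. The stretches below are from RefSeq promoter windows of GRCm38.p6, the mm10 assembly, which reach from 250 bases before to 50 bases after each annotated start. They are written 5′ to 3′ in the direction of the gene, and all lie upstream of the RefSeq start. In the GENCODE M21 annotation none of them overlaps an exon, those of Irgm2 and Tgtp1 lie in introns of longer transcripts of the same gene, and those of Tgtp1 and Tgtp2 in introns of Olfr56. Capitals mark the letters of GAAA, any 2 bases and GAAA (ISRE, which reads TTTC, any 2 bases and TTTC on the other strand) or of TTC, any 3 bases and GAA (GAS), searched on both strands. The first 4 belong to Irg genes of chromosome 11, in which a GAS is followed by an ISRE.
Igtp, chr11:58199499-58199538, plus strand: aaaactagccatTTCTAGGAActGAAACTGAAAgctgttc
Irgm2, chr11:58214890-58214929, plus strand: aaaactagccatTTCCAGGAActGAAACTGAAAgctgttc
Tgtp1, chr11:48992307-48992346, minus strand: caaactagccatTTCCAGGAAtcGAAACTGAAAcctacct
Tgtp2, chr11:49064266-49064305, minus strand: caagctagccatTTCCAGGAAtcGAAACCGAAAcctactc
Irf1, chr11:53769909-53769948, plus strand: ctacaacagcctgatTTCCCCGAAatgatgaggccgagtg
Ifit1, chr19:34640774-34640823, plus strand: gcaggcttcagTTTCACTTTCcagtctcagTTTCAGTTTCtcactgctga
Isg15, chr4:156200864-156200903, minus strand: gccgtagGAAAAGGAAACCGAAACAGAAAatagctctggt

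Irf1 is shown because its window has a GAS and no ISRE, Ifit1 because its window has a pair of ISREs read on the other strand, and Isg15 because 3 ISRE matches overlap in it. The stretches of Igtp and Irgm2 were identical at 39 of 40 bases, those of Tgtp1 and Tgtp2 at 36 of 40, and those of Tgtp1 and Igtp at 31 of 40. A GAS followed by an ISRE with their first bases 11 apart occurred in 5 of the 32851 windows of the table (0.0152%), and 4 of those 5 are the genes above. The remaining one is Gm12185, also on chromosome 11. This spacing was chosen after it was seen in the Irg genes, so it is a description of them.

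A window was present for 29 of the 40 genes. The ISRE letters were found for 16 of these 29 (55.2%), against 3.99% of the 27025 genes with a window in the table. The GAS letters were found for 11 (37.9%), against 9.55% of all genes. By class, ISRE letters were found in 5 of 6 Irg genes, 3 of 3 Gbp genes, 7 of 16 antiviral genes and 1 of 4 factors. The 14 tested genes with an ISRE had a median log2 fold change between HCC and healthy of 0.32, and the 10 tested genes with a window and no ISRE had 0.33. The fitted level was higher in HCC for 11 of the 14 and 6 of the 10, while all HCC libraries were above both controls for 3 of the 14 and 6 of the 10. Over all 8468 genes tested these shares were 50.3% and 12.8%. Ifit1, with an ISRE, and Isg20, without one, passed the filter on low counts through their HCC libraries alone. The medians were thus close and the counts pointed in different directions.

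**Figure D1:**
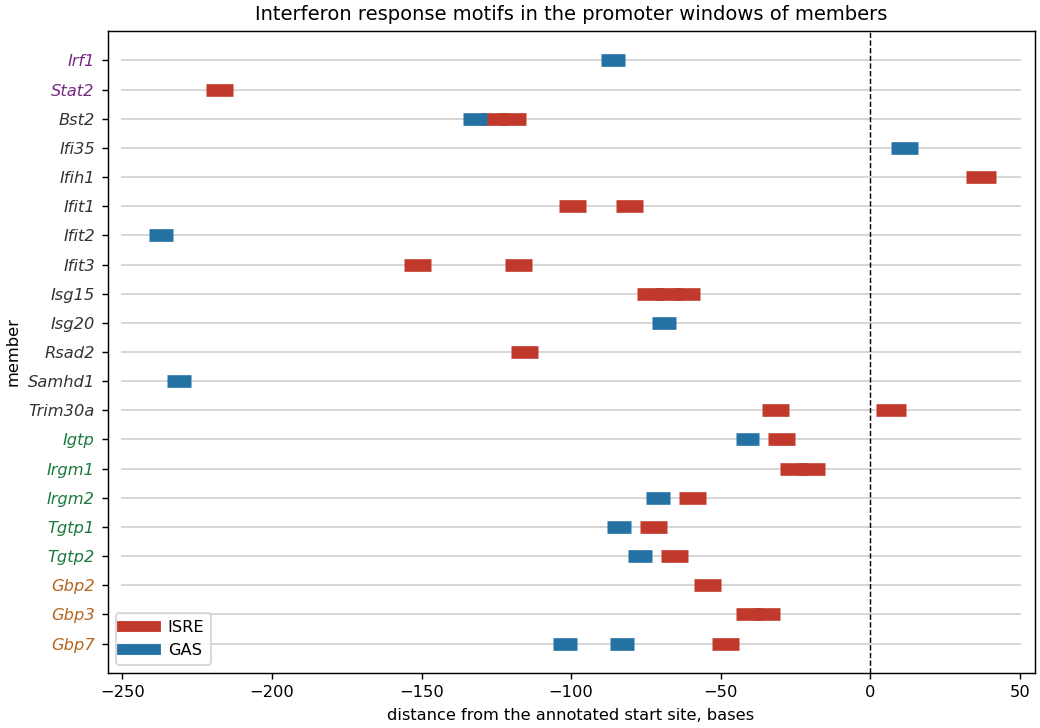
Positions of ISRE and GAS letters in the promoter windows of the genes that hold either motif, with the distance from the annotated start site in bases on the x axis and 1 row per gene. In Igtp, Irgm2, Tgtp1 and Tgtp2 a GAS stands just before an ISRE, close to the start.

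Library totals ranged from 1718452 to 2224356 counts. Levels are given in CPM, which are counts scaled so that each library's own total is 1000000, and 3 counts, the limit that a count of 0 allows, correspond to 1.35 to 1.75 CPM. These limits and all intervals cover counting error only. The p-values set the difference between groups against the spread between these libraries, as modelled over genes. Healthy 1 stood apart, with 10861 genes with a count against 11822 to 13229 in the other libraries, and with correlations of 0.766 to 0.818 to them over genes, against 0.853 to 0.905 among the others. Healthy 1 and healthy 2 are the whole control group, so results are also given without each. All 14 T and iNKT cell markers had counts. Their summed levels were 5068 to 6257 CPM in the controls, against 5663 to 6581 CPM in HCC. Single markers were less even. Zbtb16, which encodes the iNKT lineage factor PLZF, was at 0 to 1.65 CPM in every library. Klrb1c was at 382 and 5.49 CPM in the controls, against 465, 20.9 and 333 CPM in HCC, a split within both groups. Cd3d was at 572 and 680 CPM in the controls, against 527, 461 and 416 CPM in HCC. It was the 1 of 13 tested markers without overlap on own totals, and 12 overlapped. Summed markers of erythroid cells (6 of 7 with counts, Slc4a1 at 0) were 2787 and 2975 CPM in the controls, against 7391 to 17083 CPM in HCC libraries. Those of hepatocytes (12 of 12) were 48.6 and 56.5 against 65.3 to 620 CPM, and those of B cells (6 of 6) were 36.0 and 81.2 against 90.8 to 124 CPM. Neutrophil markers (4 of 8, with Mpo, Elane, Csf3r and Cxcr2 at 0) reached 1.10 CPM in the controls, against 2.12 to 12.8 CPM in HCC libraries. The sums of healthy 2 and HCC 3 were 2 and 4 counts of Ly6g alone, near the limit of 3 counts. Macrophage markers (10 of 12, with Vsig4 and Timd4 at 0) were 8.78 and 48.1 CPM in healthy and 11.2 to 33.8 CPM in HCC libraries. Dendritic cell markers (4 of 9, with Siglech, Xcr1, Clec9a, Flt3 and Cd209a at 0) were 16.6 and 29.6 against 19.6 to 21.8 CPM, and those of endothelium (4 of 7, with Stab2, Lyve1 and Cdh5 at 0) were 0.549 and 4.95 against 1.75 to 7.43 CPM. The part of these other cells in the results below was not tested.

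Most of the interferon-stimulated genes had a somewhat higher mean level in HCC than in healthy libraries, and none passed the test. Of the 40 genes, 34 passed the filter on low counts and 6 (Ifit2, Mx1, Oasl2, Ifi44, Ifih1 and Stat2) did not. The fitted level was higher in HCC for 24 of the 34 and lower for 10, or 70.6% higher against 50.3% of all 8468 genes tested. The median log2 fold change of the 34 was 0.34, against 0.0046 over all genes tested. By edgeR's quasi-likelihood test with Benjamini-Hochberg adjustment, 0 of the 34 and 0 of all 8468 genes (0%) were called at an adjusted p under 0.05, and the adjusted p of each of the 34 was 0.9999. In other fits 53 genes (0.318%) were called with no filter on low counts, 8 (0.0945%) by DESeq2 and 3 (0.0354%) in the fit blocked by replicate, and 0 members were among any of these. The libraries were RNA of many cells, in which fewer cells of a type and less RNA per cell cannot be told apart.

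At an unadjusted p under 0.05 by edgeR, Ifit1, Irf1, Irf7 and Isg20 were higher in HCC and Slfn2 and Xaf1 were lower, which is 6 of 34, against 3.63% of all genes tested (2.15% higher and 1.48% lower). The HCC libraries were all higher than both controls for 11 of the 34 genes (32.4%), against 12.8% of all genes tested. These were Isg15, Isg20, Ifit1, Zbp1, Slfn1, Ifi47, Igtp, Gbp9, Irf1, Irf7 and Irf9. They were all lower than both controls for 1 gene, Xaf1, against 5.46% of all genes tested. After scaling by TMM factors, 9 genes were above, against 10.6% of all genes, since Slfn1 and Ifi47 then overlapped, and Xaf1 was still below, against 8.44%. Of the 34 genes, 4 (Isg20, Ifit1, Usp18 and Gbp9) had passed the filter on low counts through their HCC libraries alone, so they had to be higher in HCC. Without them, and against the 7943 genes tested that passed otherwise, the fitted level was higher for 20 of 30 (66.7%, against 47.0%), 4 of 30 had an unadjusted p under 0.05 (13.3%, against 2.78%), and 8 of 30 were above both controls (26.7%, against 10.3%). Over the 38 members with any count, filtered or not, the mean CPM was higher in HCC for 30 (78.9%), against 56.2% of the 16664 genes with a count.

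**Figure D2:**
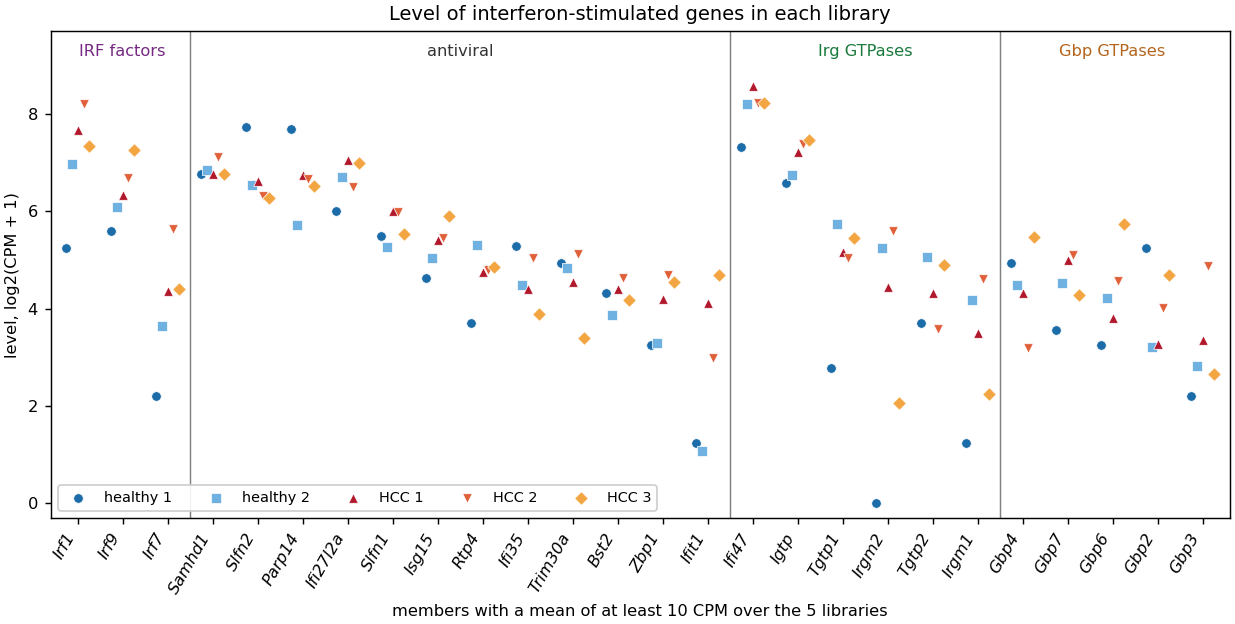
Level of each gene whose mean over the 5 libraries was 10 CPM or more, as log2(CPM + 1) on the y axis, with 1 marker per library and the genes grouped by class on the x axis. The HCC markers of Irf1, Irf7, Irf9, Isg15, Zbp1 and Igtp lie above both healthy markers, and healthy 1 is the lowest library for several Irg genes.

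The STAT and IRF factors carry the interferon signal to the genome, and 3 of the 4 had enough counts to be tested. Irf1 (chr11:53770014-53778374) encodes a factor that interferon-gamma induces and that binds ISRE-like sites. Its level was 36.9 CPM in healthy 1, 125 CPM in healthy 2, and in HCC 1, 2 and 3 it was 204, 294 and 160.3 CPM. The HCC libraries were all above both healthy ones, and healthy 1 was far below the rest. Means were 81.0 ± 62.4 CPM (SD, n = 2) and 219 ± 68.2 CPM (SD, n = 3), for a fitted log2 fold change of 1.32 (SE 0.49) with an adjusted p of 0.9999 by edgeR.

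Irf7 (chr7:141262706-141266481), the factor that amplifies type I interferon production, was at 3.60 and 11.5 CPM in the controls, against 19.6, 48.9 and 20.2 CPM in HCC. The groups did not overlap, and HCC 2 was above the other HCC libraries. The fitted log2 fold change was 1.82 (SE 0.70). Phrf1, on the opposite strand at the same locus, had 6 to 21 counts per library, and whether counting used strand is not given in the sources used here.

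Irf9 (chr14:55603571-55610030) encodes the DNA-binding subunit of the complex with STAT proteins. Its level was 47.7 and 67.0 CPM in the controls, against 79.4, 101 and 153 CPM in HCC, again without overlap, and highest in HCC 3. The means were 57.3 ± 13.7 (SD, n = 2) and 111 ± 37.7 CPM (SD, n = 3), for a log2 fold change of 0.80 (SE 0.43). Rnf31, which overlaps it on the same strand, had 4 to 20 counts. Stat2, the partner of Irf9, was too low to test, with 7 counts over the healthy and 13 over the HCC libraries, a pooled ratio of 1.38 (95% exact interval 0.512 to 4.09).

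The antiviral genes were divided. Of the 17 tested, 10 had a higher and 7 a lower fitted level in HCC, with a median log2 fold change of 0.095. All HCC libraries were above both healthy ones in 5 of the 17 (29.4%, against 12.8% of all genes tested) and below them in 1 (5.88%, against 5.46%). The 17 include Isg20, Ifit1 and Usp18, which passed the filter on low counts through their HCC libraries alone, and the 5 include Isg20 and Ifit1. Among genes tested that passed otherwise, the share above was 10.3%. The Ifit proteins bind viral RNA. Ifit1 (chr19:34640871-34650009) had 1.35 and 1.10 CPM in the controls, against 16.3, 6.98 and 24.9 CPM in HCC, which rest on 5 counts in the former and 89 in the latter. The pooled ratio of HCC to healthy was 13.2 (95% exact interval 5.47 to 41.8, counting error only), and the fitted log2 fold change was 3.48 (SE 1.00), with an adjusted p of 0.9999 by edgeR.

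Ifit2 was at 0 and 4.94 CPM in the controls, against 3.81, 4.66 and 20.2 CPM in HCC. Ifit3 was at 0 and 6.59 against 5.44, 7.56 and 10.6 CPM. In both of these, healthy 2 lay among the HCC libraries, unlike in Ifit1. The 3 genes together summed to 1.35 and 12.6 CPM in the controls, against 25.6, 19.2 and 55.7 CPM in HCC, with HCC 3 the highest for each of the 3.

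Isg15, a ubiquitin-like protein that is joined to other proteins after interferon exposure, was at 23.8 and 31.8 CPM in the controls, against 41.4, 42.5 and 58.9 CPM in HCC. The groups did not overlap, and the log2 fold change was 0.61 (SE 0.44). Zbp1, a sensor of left-handed nucleic acids, was at 8.54 and 8.78 CPM in the controls, against 17.4, 25.0 and 22.3 CPM in HCC. Its healthy values were nearly equal, with means of 8.66 ± 0.17 CPM (SD, n = 2) against 21.6 ± 3.85 CPM (SD, n = 3), for a log2 fold change of 1.12 (SE 0.59). Isg20, an exonuclease, was at 0 and 2.196 CPM in the controls, against 8.71, 14.0 and 9.02 CPM in HCC, or 4 against 57 counts, a pooled ratio of 10.6 (95% exact interval 3.92 to 40.2).

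Slfn1, of a family of regulators of T cell quiescence, was at 44.1 and 37.3 CPM in the controls, against 63.7, 62.3 and 45.6 CPM in HCC, with HCC 3 close to healthy 1. Its relative Slfn2, which is known to maintain T cell quiescence, stood the other way. Slfn2 was at 213 and 91.7 CPM in the controls, against 97.4, 78.6 and 76.4 CPM in HCC, so that HCC 1 lay between the healthy values. The log2 fold change of Slfn2 was -1.10 (SE 0.46), and it rested on healthy 1, since it was -0.15 without that library and -1.62 without healthy 2. An antisense gene, Gm20234, overlaps Slfn2.

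Xaf1 (chr11:72301629-72313733), a pro-apoptotic protein that counters inhibitors of apoptosis, was at 8.54 and 20.3 CPM in the controls, against 6.53, 2.33 and 2.12 CPM in HCC. It was the 1 tested member whose HCC libraries all lay below both healthy ones, with a log2 fold change of -2.08 (SE 0.89). Parp14, an ADP-ribosyltransferase, was high in healthy 1 (206 CPM) and low in healthy 2 (51.6 CPM), with the HCC libraries between them at 107, 100.1 and 90.8 CPM. Its log2 fold change was -0.66 (SE 0.56) and became 0.91 without healthy 1.

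The remaining antiviral genes whose mean reached 10 CPM overlapped between the groups. Ifi27l2a, a small mitochondrial protein gene strongly induced by type I interferon, was at 63.4 and 103 CPM in the controls, against 131, 89.0 and 126 CPM in HCC. Samhd1, which degrades deoxynucleotides and so limits reverse transcription, was nearly level, at 107 and 114 against 108, 138 and 107 CPM. Bst2, which tethers budding viruses to the cell, was at 18.9 and 13.7 against 20.1, 23.9 and 17.0 CPM. In these 3 genes the library that stood lowest differed from gene to gene.

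Rtp4, a receptor chaperone that is interferon-induced, was at 12.1 and 38.4 CPM in the controls, against 26.1, 26.8 and 28.1 CPM in HCC. Ifi35 was at 38.2 and 21.4 against 20.1, 32.0 and 13.8 CPM. Trim30a, a brake on inflammatory signalling, was at 29.7 and 27.4 against 22.3, 33.8 and 9.55 CPM, and it shares 31.5% of the 31-base words of its 3′ end with other genes, mainly Trim30d. Rtp4 thus had HCC libraries close together and healthy libraries far apart on either side of them.

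The other antiviral genes were near the limit of detection. Mx1, a dynamin-like GTPase against influenza viruses, and Ifi44 had 0 counts in every library, which allows up to 1.35 to 1.75 CPM. Oasl2 had counts only in HCC 1 and HCC 2, up to 2.72 CPM, and Ifih1, the sensor MDA5, only in HCC 2 and HCC 3, up to 2.91 CPM. Rsad2, which encodes viperin, was at 3.81 to 11.7 CPM with overlapping groups and a log2 fold change of 0.01 (SE 0.90). Usp18, the protease that removes Isg15 and restrains the type I receptor, was at 0 and 3.29 CPM in the controls, against 12.5, 2.91 and 6.90 CPM in HCC, a pooled ratio of 5.08 (95% exact interval 2.15 to 14.7).

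**Figure D3:**
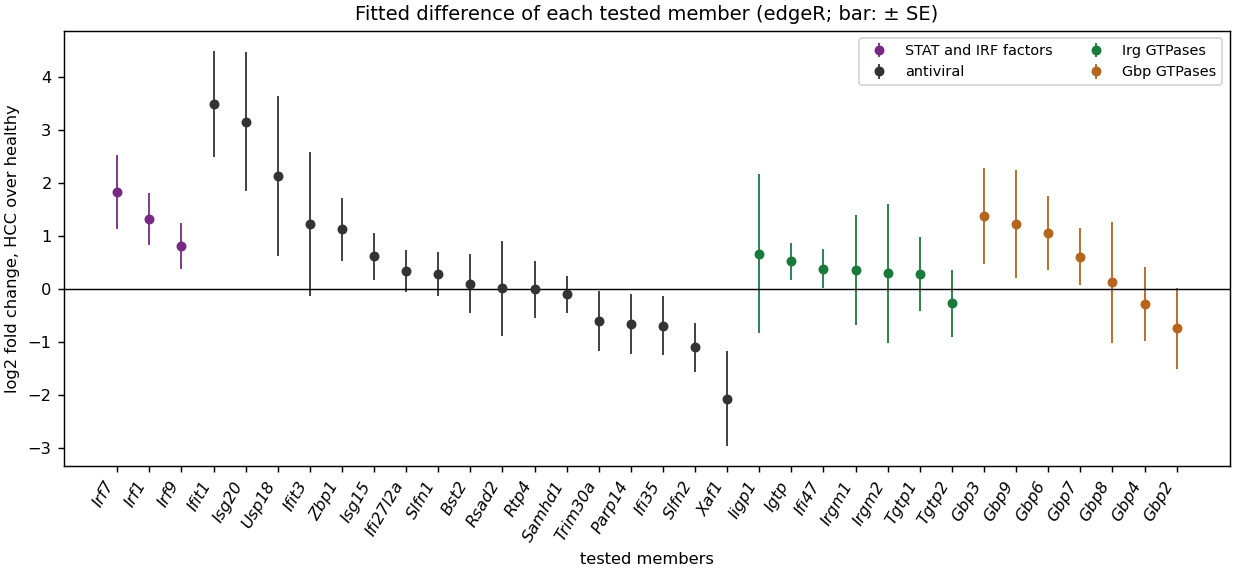
Fitted log2 fold change of HCC over healthy for each of the 34 tested genes on the y axis, coloured by class, with bars of ± 1 standard error from the edgeR fit. The values of 24 genes lie above 0, led by Ifit1 and Isg20, and Xaf1 is the lowest.

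The Irg GTPases divide into effectors, which bind pathogen vacuoles, and the regulatory Irgm proteins and Igtp, which guard the cell's own membranes. All 7 were tested, 6 had a higher fitted level in HCC, and the median log2 fold change was 0.34. Igtp (chr11:58199556-58207591), also named Irgm3, was at 95.3 and 106 CPM in the controls, against 148, 167 and 175 CPM in HCC. The groups did not overlap, each was narrow, and the means of 101 ± 7.90 CPM (SD, n = 2) and 163 ± 13.9 CPM (SD, n = 3) gave a log2 fold change of 0.52 (SE 0.35). Igtp was little moved by any single library, with log2 fold changes of 0.43 to 0.59 when each was left out in turn.

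Ifi47 (chr11:49076587-49096974), an effector also named Irgd, was at 160.0 and 296 CPM in the controls, against 383, 300.3 and 297 CPM in HCC. HCC 2 and HCC 3 were close to healthy 2, and healthy 1 was the lowest, for a log2 fold change of 0.38 (SE 0.36). Irgm2 was at 0 in healthy 1 and at 36.8 CPM in healthy 2, with 20.7, 47.1 and 3.18 CPM in HCC libraries. Irgm1, which regulates autophagy as well, was at 1.35 and 17.0 against 10.3, 23.3 and 3.72 CPM. In both Irgm genes healthy 1 and HCC 3 were the lowest libraries and HCC 2 the highest. Irgm2 overlaps Igtp on the same strand, but their 3′ ends share no 31-base word.

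Tgtp1 was at 5.84 and 52.7 CPM in the controls, against 34.8, 32.0 and 43.0 CPM in HCC. Tgtp2 was at 12.1 and 32.4 against 19.0, 11.1 and 28.7 CPM. These are near copies, also counted as effectors, and share 83.6% and 71.3% of the words of their 3′ ends with other genes, mainly with each other, so their split is uncertain. Iigp1, on chromosome 18, was at 0 to 7.62 CPM with overlapping groups.

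Summed, the 7 Irg genes had 275 CPM in healthy 1 and 548 CPM in healthy 2, and 623, 584 and 556 CPM in HCC 1, 2 and 3. On these totals all HCC libraries were above both healthy ones, while after TMM scaling HCC 2, at 521 CPM, was below healthy 2, at 529 CPM. The distance between the healthy libraries was larger than that from healthy 2 to any HCC library. The ratio of the group means was 1.43. The regulators Igtp, Irgm1 and Irgm2 summed to 96.7 and 160.3 against 179, 237 and 182 CPM. The effectors summed to 178 and 388 against 444, 346 and 374 CPM, with overlap.

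The Gbp proteins attack pathogen vacuoles and bacteria and help to activate inflammasomes, and 5 of 7 had a higher fitted level in HCC, with a median log2 fold change of 0.60. Gbp7 was at 10.8 and 21.96 CPM in the controls, against 31.02, 33.2 and 18.6 CPM in HCC. Gbp3 was at 3.60 and 6.04 against 9.25, 28.5 and 5.31 CPM, and was high in HCC 2 alone. Gbp2, a strongly interferon-gamma-induced member, was at 36.9 and 8.23 against 8.71, 15.1 and 24.9 CPM. Of these 3 genes of chromosome 3, Gbp3 and Gbp7 were lowest and Gbp2 highest in healthy 1.

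Gbp6 was at 8.54 and 17.6 CPM in the controls, against 13.1, 22.7 and 52.5 CPM in HCC. Gbp4 was at 29.7 and 21.4 against 19.0, 8.15 and 43.5 CPM. Both of these genes of chromosome 5 were highest in HCC 3. All the 31-base words of the 3′ end of Gbp6 occur in other genes, and Gm43302, which holds 99.6% of them, had 13 and 14 counts in healthy and 18, 28 and 84 counts in HCC libraries, where Gbp6 had 19 and 32 and then 24, 39 and 99 counts. The 2 rows therefore cannot be read as separate genes. For Gbp4 the share of such words was 27.0%.

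Gbp9 was at 3.60 and 2.74 CPM in the controls, against 13.6, 6.40 and 5.84 CPM in HCC, without overlap, and its log2 fold change of 1.22 (SE 1.01) became 0.72 without HCC 1. Gbp8 was at 1.59 to 8.71 CPM with overlapping groups. Gbp4, Gbp8 and Gbp9 overlap one another on the same strand. The 7 Gbp genes summed to 96.7 and 83.4 CPM in the controls, against 103, 120.5 and 152 CPM in HCC, or 90.0 ± 9.35 CPM (SD, n = 2) against 125 ± 24.8 CPM (SD, n = 3).

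The classes differed in where their difference lay. The 22 antiviral genes summed to 780 and 587 CPM in the controls, against 714, 702 and 683 CPM in HCC, so the HCC libraries lay between the healthy ones. This order rests on Slfn2 and Parp14, which were at 213 and 206 CPM in healthy 1 and at 91.7 and 51.6 CPM in healthy 2. The contrast in order between this sum and those of the other classes therefore rests on these 2 genes as well. The log2 ratio of the mean antiviral sums was 0.034 on the libraries' own totals and turned to -0.18 after TMM scaling. The 4 factors summed to 89.5 and 206 CPM against 307, 445 and 335 CPM, with a ratio of means of 2.45, and this class held the largest ratio of the 4. The 14 GTPases together summed to 371 and 631 against 726, 704 and 708 CPM, a ratio of 1.42, with HCC libraries close together.

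Within each library, the ratio of the summed GTPases to the summed antiviral genes was 0.476 in healthy 1 and 1.08 in healthy 2, and 1.02, 1.00 and 1.04 in HCC 1, 2 and 3. This ratio therefore set healthy 1 apart from the other 4 libraries, and did not set the healthy group apart from HCC, since healthy 2 was the highest of all. The ratio of the factors to the antiviral genes was 0.115 and 0.351 in healthy and 0.430, 0.634 and 0.491 in HCC libraries, which did not overlap. The antiviral sum in both ratios includes Slfn2 and Parp14, each highest in healthy 1.

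**Figure D4:**
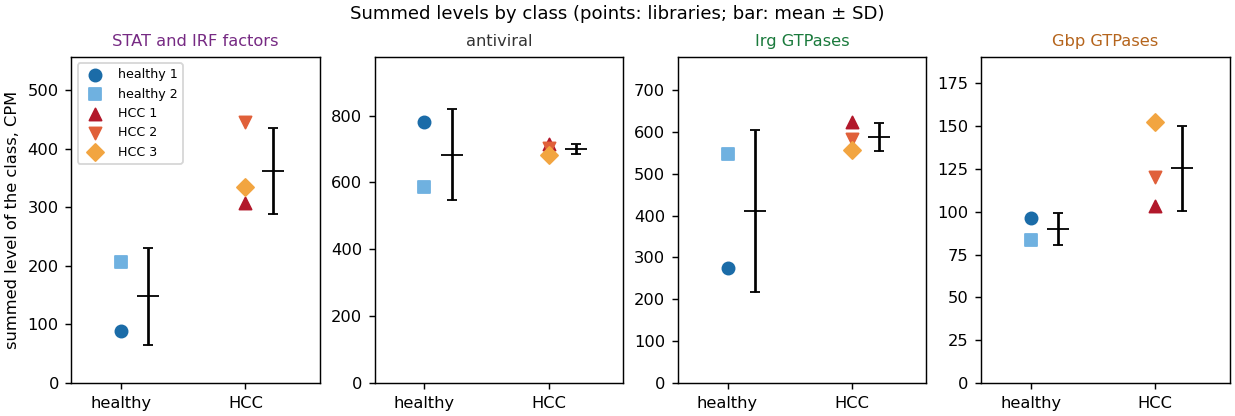
Summed level of each class in CPM on the y axes, which start at 0, with 1 point per library for healthy and HCC on the x axis and a bar at the mean with its SD. The factors lie higher in all HCC libraries. So do the Irg and Gbp GTPases on these own-total values, but not after TMM scaling. The HCC libraries of the antiviral class lie between the healthy ones, an order that rests on Slfn2 and Parp14.

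Leaving out a healthy library moved the classes unequally. The median log2 fold change of the 7 Irg genes was 0.34 with all libraries, -0.52 without healthy 1, and 2.36 without healthy 2, or 1.97 with genes at 0 in healthy 1 taken at the limit of 3 counts. Without healthy 1, 28.6% of the tested Irg genes had a higher fitted level in HCC, in place of 85.7%. The median of the 3 tested factors was 1.32 with all libraries, 0.76 without healthy 1 and 2.26 without healthy 2, and it was 1.11 to 1.48 without 1 HCC library. That of the Gbp genes was 0.49 to 0.97 and that of the antiviral genes 0.047 to 0.49 over the 5 fits that each left out 1 library. The Gbp median depended on low counts as well. With all libraries, and only genes of at least 10 CPM in 2 libraries, it was 0.15 over 4 Gbp genes. In that fit the median was 0.041 for the antiviral genes, 0.33 for the Irg genes and 1.32 for the factors. It was -0.0076 over all genes in that fit. The median over all genes tested was 0.059 without healthy 1 and 0.23 without healthy 2.

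Without healthy 2, edgeR called 196 of 9755 genes (2.01%) at an adjusted p under 0.05, with 2 of the members among them. Irf1 had a log2 fold change of 2.26 and an adjusted p of 0.033, and Slfn2 had -1.62 and an adjusted p of 0.0405, both by edgeR with healthy 1 as the lone control, which the fit assumes to vary like the HCC libraries. Without healthy 1, 0 genes were called, and the log2 fold change of Irf1 was 0.76. That of Irf7 was 1.29 without healthy 1 and 2.70 without healthy 2. That of Isg20 was 2.19 without healthy 1, and Ifit1 stayed at 2.98 to 3.86 in all 5 of these fits. All HCC libraries lay above the remaining healthy library for 14 members without healthy 1, against 24.2% of all genes, and for 22 without healthy 2, against 45.7% of all genes.

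**Figure D5:**
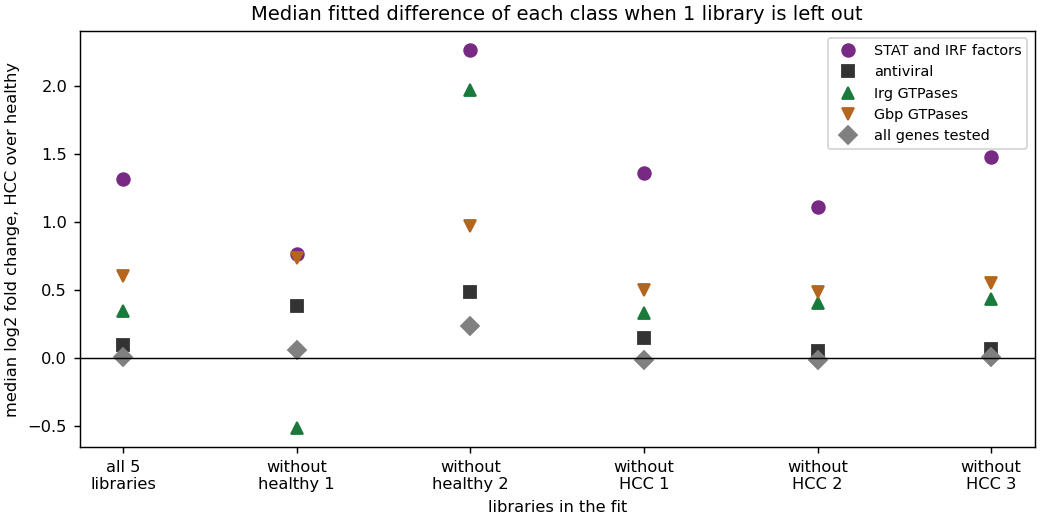
Median fitted log2 fold change of each class and of all genes on the y axis, with genes at 0 counts in a whole group taken at the limit of 3 counts, with all 5 libraries and with each library left out in turn on the x axis. The Irg median changes sign without healthy 1 and is highest without healthy 2, where it lies at 1.97 against 2.26 for the factors.

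The genes upstream of the members were also read. Of 10 interferon genes, 9 had 0 counts in every library. Ifng, the type II interferon gene, was at 9.44 and 16.5 CPM in the controls, against 31.02, 10.5 and 9.02 CPM in HCC, with overlap and a log2 fold change of 0.24 (SE 0.72). Of 9 receptor and kinase genes 6 were tested, with 3 higher and 3 lower and 0 called. Jak1 and Jak2 were the 2 of the 6 with all HCC libraries above both healthy ones, against 12.8% of all genes tested. Jak1, the kinase shared by both interferon pathways, was at 111 and 230 CPM in the controls, against 313, 333 and 338 CPM in HCC, and its log2 fold change was 0.81 (SE 0.37). Ifngr1, a receptor chain for interferon-gamma, was at 384 and 141 against 282, 217 and 325 CPM, and Il10rb at 18.0 and 68.6 against 42.5, 76.2 and 45.1 CPM.

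Among 15 other STAT and IRF factors and brakes, 14 were tested, with 10 higher and 4 lower in HCC, a median log2 fold change of 0.17, and 0 called. Nmi, which binds STAT proteins, was at 63.4 and 161 against 158, 122 and 145 CPM. Irf2bpl was at 10.8 and 52.1 against 54.4, 40.7 and 25.0 CPM. The groups thus overlapped for Nmi and Irf2bpl, and 0 of the 14 had all HCC libraries on one side of both healthy ones. Over all genes tested, 12.8% lay above and 5.46% below.

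Of 16 genes of nucleic acid sensing 10 were tested, with 6 higher and 4 lower. Mavs, the adaptor of the RNA sensors, was the 1 gene of the 10 with all HCC libraries above both healthy ones, against 12.8% of all genes tested. Its level was 0 and 2.74 against 9.80, 20.9 and 16.5 CPM. Mavs had passed the filter on low counts through its HCC libraries alone, so it had to be higher in HCC. The DNA sensor Cgas was at 443 and 11.5 CPM in the controls, against 16.9, 509 and 1001 CPM in HCC, a spread within each group larger than the difference between the group means. Tmem173, which encodes STING, was at 74.2 and 113 against 85.4, 75.6 and 90.8 CPM. Myd88 was at 28.8 and 56.0 against 54.4, 73.3 and 37.7 CPM.

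Of 66 further interferon-stimulated genes outside the 40, 42 were tested, with 26 higher and 16 lower in HCC, a median log2 fold change of 0.30, and 0 called. All HCC libraries lay above both healthy ones for 10 of these 42, against the 12.8% of all genes tested, and below them for 0, or for 1 (Ms4a6b) after TMM scaling. Among the 10, Ifi214 and Znfx1 had passed the filter on low counts through their HCC libraries alone. Shisa5 was at 1192 and 1690 CPM in the controls, against 1624, 1966 and 1514 CPM in HCC. Ms4a4b, a T cell membrane protein, was at 143 and 1103 against 692, 810.0 and 430.5 CPM, and Ms4a6b at 369 and 433 against 373, 319 and 329.6 CPM. Healthy 1 was the lowest of the 5 libraries for Shisa5 and Ms4a4b, as it was for 19 of the 34 tested members (55.9%), against 41.9% of all genes tested.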

How the data were processed

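RNA of sorted hepatic iNKT cells was read with a 3′ mRNA library kit in 2 healthy and 3 HCC libraries, grouped by their titles. The deposited values are raw counts per Ensembl gene ID, with 1 table per library. Aligners (Bowtie2 and HISAT2), bcl2fastq, the R packages DESeq, DESeq2, limma and edgeR, and the build mm10 are named, without roles, per the submitters' processing notes. How reads were assigned to genes, and whether by strand, is not given in the sources used here. Because 3′ reads fall on the last part of a transcript, genes with like 3′ ends can exchange counts, so 31-base words shared between the last 300 bases of transcripts were counted with GENCODE M21, which also gave symbols (55104 of 55364 IDs) and positions. A share of 25% or more was reported, a limit set after the shares were seen.

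Levels are CPM of each library's own total. The comparison of HCC with healthy used all 5 libraries in R 4.3.3 with edgeR 4.0.16 (filterByExpr by group, TMM scaling, quasi-likelihood test), with Benjamini-Hochberg adjustment over all 8468 genes tested and a threshold of 0.05. The common dispersion was 0.289. The fit was tested on simulated data. DESeq2 1.42.0 and limma 3.58.1 (voom), other scalings and filters, a replicate block, HCC 2 and HCC 3 summed, and each library left out were the alternatives. Members with a mean of at least 10 CPM were given in every library, others by range and counts, and Isg20, Ifit2, Ifit3, Usp18, Xaf1 and Gbp9, below that level, were named after their values were seen. Of each further pathway list, the 3 tested genes of highest mean CPM were named, except 1 gene that is not reported here, and Jak2, Mavs and other single genes after their values were seen. Of the listed genes, Mnda matched no row. The members and lists were chosen with earlier results of these data known. Motifs were searched in the RefSeq windows, where 11 members had none.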

Additional observations from a re-analysis of the deposited data

How the results depend on the processing

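With 2 control libraries, of which 1 stood apart, the results depended most on which healthy library was used, and the cause was not tested. Genes called numbered 0 with edgeR, 53 with no filter on low counts, 8 with DESeq2's Wald test, and 0 to 196 when 1 library was left out, the highest without healthy 2; a lone control is assumed to vary like the other group. Calls among the members numbered 0 to 2 when 1 library was left out. With a replicate block 3 genes were called, none of them a member. The deviations of same-numbered samples from their group means correlated at -3.57e-05 and 0.1248. With 2 healthy libraries such deviations mirror each other, so these values cannot show whether same-numbered samples were paired. The share of Irg genes fitted higher was 28.6 to 100.0% over the left-out libraries. With 1 library left out, members whose remaining HCC libraries were all above the remaining controls numbered 13 to 22 and those below 2 to 5, the highest without healthy 2, when 45.7% and 20.9% of all genes were so placed against the lone control. Without healthy 1 these shares of all genes were 24.2% and 23.3%, and they were not counted with 1 HCC library left out. With HCC 2 and HCC 3 summed, 2 members were below, and the share of all genes was not counted in that setting. On the log2 scale, the ratio of summed CPM of all members was 0.414, 0.234 after TMM scaling and 0.318 to 0.516 with 1 library left out. That of the antiviral genes was -0.178 after TMM scaling and -0.157 to 0.254 with 1 left out, of the Irg genes 0.101 to 1.1, of the factors 0.816 to 2.02, and of the GTPases together 0.176 to 0.941. With library totals as the only scaling, the median of all genes shifted to 0.16 and that of the members to 0.48.

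Of the 34 tested members, Rtp4, at -0.0077, turned to 0.10 with library totals only, 0.017 with no filter, 0.13 with limma-voom and 0.058 with the replicate block, and Samhd1 to 0.088 with library totals only. Rsad2, at 0.01, turned to -0.11 with limma-voom, -0.49 with the replicate block and -0.16 with HCC 2 and HCC 3 summed, and Gbp8, at 0.12, to -0.14 with limma-voom. With 1 library left out, log2 fold changes of both signs were fitted for Bst2 (-0.19 to 0.53), Rtp4 (-0.53 to 0.86), Samhd1 (-0.17 to 0.01), Parp14 (-1.35 to 0.91), Rsad2 (-0.44 to 0.39), Gbp8 (-0.39 to 0.55), Irgm1 (-0.52 to 2.82), Tgtp1 (-0.54 to 2.36), Tgtp2 (-0.73 to 0.42), Gbp2 (-1.45 to 0.96) and Gbp4 (-1.12 to 0.15). The same held for Irgm2 (-0.71 to 8.38) and Iigp1 (-0.32 to 6.30), whose highest values are against 0 counts in healthy 1 and are no bounds. Irf1 and Slfn2 passed the threshold without healthy 2. The other 398 values of tested members kept their direction and their side of the threshold. The mean over the 5 libraries was under 10 CPM for 14 of the 40 members.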
